A study of Mus musculus with 16 samples.

Results

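Collagens are the main structural proteins of the extracellular matrix, and mouse embryonic fibroblasts (MEFs) are among the cells that make them in quantity. The collagen genes described here are the 43 of 18990 rows of the deposited expression table whose symbol consists of Col, a number, the letter a and a number. They were divided by the known structure of their proteins into 11 fibrillar members, 6 basement membrane members (the type IV chains *Col4a1* to *Col4a6*) and 26 other members. The others comprise 6 beaded filament chains (type VI), 3 network chains (types VIII and X), 1 anchoring fibril chain (type VII), 9 FACIT chains (fibril-associated collagens with interrupted triple helices), 4 transmembrane chains, 2 multiplexins (types XV and XVIII) and *Col28a1*. Col26a1 was not analysed here. Bulk RNA sequencing was performed on MEFs undergoing reprogramming to a pluripotent state, with 16 libraries in 8 groups of 2, which were independent experiments. All groups were wild-type BL6 MEFs, reprogrammed at passage 2 after transduction at an MOI of 1 with lentiviruses carrying rtTA and tet-STEMCCA, a doxycycline-inducible cassette of *Oct4*, *Sox2*, *Klf4* and *c-Myc* (OSKM). Cells were reverse transfected with 40 nM of pooled siRNAs that were non-targeting (nt control) or directed at *Wdr5* (siWdr5), *Brca1* (siBrca1) or *Bard1* (siBard1), and RNA was collected 3 and 6 days after reprogramming began. Every group shared the reprogramming medium, which held 10% FBS, 2 ug/mL doxycycline, 3 uM chiron, 0.25 uM Alk5i (an inhibitor of TGFb signaling), 50 ug/mL ascorbic acid and LIF, so no group describes collagen genes without OSKM, with TGFb signaling left intact or without added ascorbic acid. The knockdowns were transient and partial.

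A collagen molecule is a triple helix of 3 chains, encoded by 1 gene in a homotrimer or by several genes in a heterotrimer. Fibrillar collagens such as types I, III and V assemble into the fibers of connective tissue and are a hallmark of mesenchymal cells, whereas type IV collagen forms the sheet-like network of basement membranes on which epithelia rest. The chains are hydroxylated and folded in the endoplasmic reticulum with ascorbic acid as a cofactor, exported in large carriers and, for the fibrillar types, trimmed by procollagen proteinases outside the cell. Reprogramming of fibroblasts includes a mesenchymal-to-epithelial transition (MET), in which mesenchymal genes are lowered and epithelial genes are raised. WDR5 is a subunit of histone lysine methyltransferase complexes, and BRCA1 and BARD1 form a ubiquitin ligase that acts in DNA repair.

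The libraries held 11169738 to 26832534 reads (median 14618683.5), and 3 reads corresponded to 0.115 to 0.260 CPM, the unit of expression relative to the size of each library. CPM in the text is 2 to the power of the deposited log2 CPM, which contains a small prior count. At day 3, *Wdr5* stood at 50.6 to 55.3 CPM in siWdr5 against 130.4 to 132 CPM in nt, *Brca1* at 19.4 to 37.5 CPM in siBrca1 against 78.0 to 82.4 CPM, and *Bard1* at 18.0 to 20.8 CPM in siBard1 against 29.1 to 30.5 CPM. *Bard1* was lower still in siBrca1, at 9.07 to 14.4 CPM. All 3 targeted transcripts were called lower at day 3 in siWdr5 (log2 fold changes −1.31 to −0.86) and in siBrca1 (−1.57 to −0.87). In siBard1, 2 of the 3 were called lower (−0.62 to −0.38 over all 3). The day 3 groups thus do not describe the loss of 1 targeted transcript alone. At day 6 none of the 3 targeted transcripts was called lower by its own siRNA (log2 fold changes of −0.27 for *Wdr5*, 0.01 for *Brca1* and 0.11 for *Bard1*). All 8 fibroblast markers examined were expressed in every group, with a summed level of 2629.9 to 2710.3 CPM in nt at day 3 and 2545 to 2872 CPM at day 6, while the 6 epithelial markers summed to 45.2 to 67.8 CPM at day 3 and 556 to 749 CPM at day 6. Endothelial *Emcn* had at most 3 reads in every library, and the macrophage marker *Adgre1* had at most 3 reads in every library of 4 of the 8 groups.

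The type IV genes lie in pairs that start next to each other on opposite strands. In the mm10 annotation, *Col4a1* and *Col4a2* on chromosome 8 start 21 bp apart, *Col4a4* and *Col4a3* on chromosome 1 start 72 bp apart, and *Col4a6* and *Col4a5* on the X chromosome start 1309 bp apart. Promoter windows from 250 bases before to 50 bases after the start of transcription (RefSeq, build GRCm38.p6) were at hand for 35 of the 43 members, in 38 windows because some have more than 1 start. The windows of *Col4a1* (chr8:11312777-11313076, minus strand) and *Col4a2* (chr8:11312555-11312854, plus strand) are shown because the changes of these genes were close to each other throughout, and 78 bases of their windows overlap. Those of *Col1a2* (chr6:4505368-4505667, plus strand) and *Col3a1* (chr1:45311288-45311587, plus strand) are shown because these abundant fibrillar genes, whose products are found in the same fibers, took values of opposite sign in siBrca1 and over time. Each sequence is printed 5′ to 3′ on the strand of its gene, with 3 motifs in capitals wherever they match on either strand. The first motif searched was TATAAA, the core of the TATA box. The second was CCAAT, bound by nuclear factor Y. The third was GGGCGG, the core of the GC box.
Col4a1: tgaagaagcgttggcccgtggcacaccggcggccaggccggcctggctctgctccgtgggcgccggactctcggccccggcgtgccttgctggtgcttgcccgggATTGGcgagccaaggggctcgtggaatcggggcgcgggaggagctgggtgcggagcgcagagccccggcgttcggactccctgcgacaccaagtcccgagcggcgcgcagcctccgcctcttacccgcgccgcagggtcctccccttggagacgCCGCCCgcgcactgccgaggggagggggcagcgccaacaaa
Col4a2: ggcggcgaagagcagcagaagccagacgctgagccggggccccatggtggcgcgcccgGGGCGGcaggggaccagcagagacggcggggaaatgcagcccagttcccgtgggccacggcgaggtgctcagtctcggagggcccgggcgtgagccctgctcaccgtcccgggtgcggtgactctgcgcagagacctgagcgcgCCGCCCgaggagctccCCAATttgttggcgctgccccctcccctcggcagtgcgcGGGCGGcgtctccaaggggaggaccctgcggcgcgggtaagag
Col1a2: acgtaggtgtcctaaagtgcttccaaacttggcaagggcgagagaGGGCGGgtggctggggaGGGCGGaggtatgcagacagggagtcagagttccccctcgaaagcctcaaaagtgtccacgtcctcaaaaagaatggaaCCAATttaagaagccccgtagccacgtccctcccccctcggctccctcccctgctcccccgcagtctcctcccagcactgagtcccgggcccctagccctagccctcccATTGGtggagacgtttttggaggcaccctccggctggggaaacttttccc
Col3a1: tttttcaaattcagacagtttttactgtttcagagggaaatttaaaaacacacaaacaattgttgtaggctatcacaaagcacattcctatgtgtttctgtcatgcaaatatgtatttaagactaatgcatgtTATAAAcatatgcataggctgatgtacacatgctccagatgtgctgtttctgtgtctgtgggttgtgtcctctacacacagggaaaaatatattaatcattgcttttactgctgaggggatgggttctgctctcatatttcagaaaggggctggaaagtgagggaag
The GC box core was present in the windows of *Col4a1*, *Col4a2* and *Col1a2* and not in that of *Col3a1*. The match of the *Col4a1* window, at position 9 from its start site, lies in the overlap. It is the same site as the match at position 7 of *Col4a2*. TATAAA was present in the window of *Col3a1*, at position −117 from its start site, and not in the other 3. Over the members, GGGCGG was found in 23 of 38 windows (60.5%) against 35.7% of all 32851 windows, CCAAT in 13 (34.2%) against 37.4%, and TATAAA in 5 (13.2%) against 13.6%. No motif overlapped another within any of the 4 windows shown. A match describes the letters only and does not mark a site in use.

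Collagen transcripts were abundant in the reprogramming cells. In nt at day 3 they took 1.21% to 1.41% of the reads in the table, of which 52.4% to 54.2% were fibrillar, 13.3% to 13.9% basement membrane and 31.9% to 34.2% other. By the level per kb of the longest coding transcript, *Col1a1* was highest with 620.1 ± 87.2 CPM per kb (mean ± SD, n = 2), followed by *Col1a2* with 256 ± 25.4, *Col12a1* with 183 ± 2.65 and *Col6a1* with 161 ± 15.95 CPM per kb. *Col3a1* (139 ± 1.35 CPM per kb) and *Col4a1* (135 ± 16.2 CPM per kb) came next and lay within 1 SD of each other. *Col4a2* (117 ± 14.2 CPM per kb) and *Col6a2* (112 ± 8.02 CPM per kb) did so too, and *Col4a1* and *Col4a2* differed by more than the SD of either. *Col5a1*, *Col6a3* and *Col5a2* followed between 63.8 and 76.0 CPM per kb. Of these, *Col5a1* and *Col6a3* lay within 1 SD of each other. The order was different at day 6, with *Col3a1* at 193 ± 14.0, *Col1a1* at 174 ± 3.796, *Col6a1* at 173 ± 17.0 and *Col18a1* at 142 ± 0.780 CPM per kb, where only *Col1a1* and *Col6a1* lay within 1 SD of each other.

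The share of collagen reads was higher in each knockdown than in nt at day 3, without overlap between the libraries. It came to 2.22% to 2.25% in siWdr5, 2.11% to 2.13% in siBrca1 and 1.81% to 1.85% in siBard1. In nt it was 0.956% to 1.09% at day 6, against 1.74% to 2.14% in siWdr5, 1.09% to 1.31% in siBrca1 and 1.36% to 1.38% in siBard1. The fibrillar part of these reads went from 52.4% to 54.2% at day 3 to 36.4% to 38.1% at day 6 in nt. With 2 libraries against 2, an exact permutation test of a single share cannot give a p below 0.333, so these shares are given as a description. In bulk samples, fewer cells of a type and less RNA per cell cannot be told apart.

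**Figure D1:**
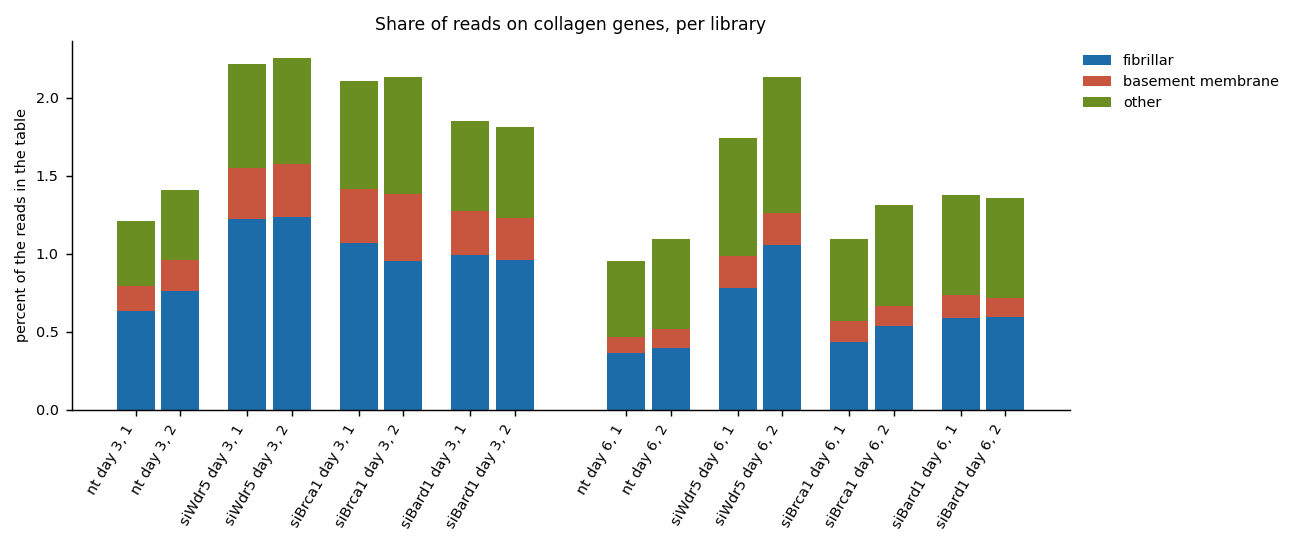
Percent of the reads in the table that fell on collagen genes in each of the 16 libraries (replicates 1 and 2 of each group), stacked by class. The nt libraries are the lowest of each day, at 1.21% to 1.41% at day 3 and 0.956% to 1.09% at day 6, although the lowest siBrca1 library at day 6 (1.09%) lies close to the higher nt library (1.09%).

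To ask which collagen genes responded to each knockdown, limma was applied to the 14028 genes whose log2 CPM averaged 0 or more. Of the 43 members 33 passed this filter, namely 11 of 11 fibrillar, 4 of 6 basement membrane and 18 of 26 other members. A gene was called higher or lower at an adjusted p under 0.05 (Benjamini-Hochberg over all genes tested). In siWdr5 at day 3, 24 of the 33 tested members rose and 1 fell, while 18.3% of all genes were called higher and 16.8% lower. The rise took in 9 of 11 fibrillar, 3 of 4 basement membrane and 12 of 18 other members, with median log2 fold changes of 0.81, 0.76 and 0.67 against −0.04 over all genes tested. The largest rises were those of *Col2a1*, the chain of cartilage type II collagen (1.96, SE 0.15, adjusted p = 2.97e-06), and *Col28a1* (1.91, SE 0.28, adjusted p = 2.56e-04). They were followed by the type VI chain *Col6a5* (1.73, SE 0.34, adjusted p = 0.00157) and the FACIT chain *Col20a1* (1.67, SE 0.33, adjusted p = 0.00183). The member that fell was *Col18a1*, whose C-terminal fragment is endostatin (−0.32 at adjusted p = 0.0495). When 1 of the 4 libraries compared was left out, 20 to 22 members were called, and 19 of the 25 were called in each of these fits. *Col11a1* and *Col18a1* lost the call without nt replicate 1, nt replicate 2, siWdr5 replicate 1 or siWdr5 replicate 2, and *Col23a1*, *Col4a5*, *Col6a1* and *Col16a1* lost it in at least 1 fit.

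In siBrca1 at day 3, 18 tested members rose and 3 fell, against 25.4% of all genes higher and 21.8% lower. All 4 tested basement membrane members rose (median log2 fold change 1.17), as did 7 of 11 fibrillar (0.72) and 7 of 18 other members (0.27), with a median of 0.00 over all genes tested. Both network chains that passed the filter were among the largest rises. *Col10a1*, the type X chain of hypertrophic cartilage, changed by 1.89 (SE 0.19, adjusted p = 7.75e-06) and *Col8a1*, a short-chain collagen of vessel walls, by 1.84 (SE 0.13, adjusted p = 7.64e-07), followed by *Col2a1* (1.76, SE 0.15, adjusted p = 2.91e-06). The fall was largest for *Col6a5* (−2.15, SE 0.34, adjusted p = 1.85e-04), and *Col17a1*, a transmembrane chain of epithelial hemidesmosomes (−1.07 at adjusted p = 0.0326), and the type V chain *Col5a3* (−0.79 at adjusted p = 6.79e-04) also fell. The fall of *Col17a1* rests on few reads, 4 and 3 in the siBrca1 libraries against 11 and 11 in nt, close to the floor. Leaving out 1 library gave 15 to 24 calls, with 14 of the 21 called in each fit. *Col1a1*, *Col1a2* and *Col4a6* were not called without nt replicate 1, *Col20a1* not without siBrca1 replicate 2, *Col6a1* not without either of these 2 libraries, and *Col11a2* and *Col17a1* not without nt replicate 1, nt replicate 2 or siBrca1 replicate 2.

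The siBard1 cells showed fewer calls at day 3, with 9 tested members called higher and 1 lower, against 8.67% and 5.87% of all genes. Higher were 3 of 11 fibrillar members, 3 of 4 basement membrane members and 3 of 18 other members, with medians of 0.40, 0.54 and 0.11 against −0.02 over all genes tested. The 9 genes were *Col2a1*, *Col5a1*, *Col5a2*, *Col4a1*, *Col4a2*, *Col4a5*, *Col8a1*, *Col10a1* and *Col12a1*. The comparisons of the 3 knockdowns share the nt libraries. *Col15a1*, a multiplexin of the basement membrane zone, fell in siBard1 (−0.85, SE 0.21, adjusted p = 0.0179). Only *Col2a1*, *Col8a1* and *Col10a1* were called whichever library was left out, and the count was 3 without nt replicate 1, 8 without nt replicate 2, 5 without siBard1 replicate 1 and 9 without siBard1 replicate 2. Fitted without the filter on low values or without the mean-variance trend, 5 members were called.

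**Figure D2:**
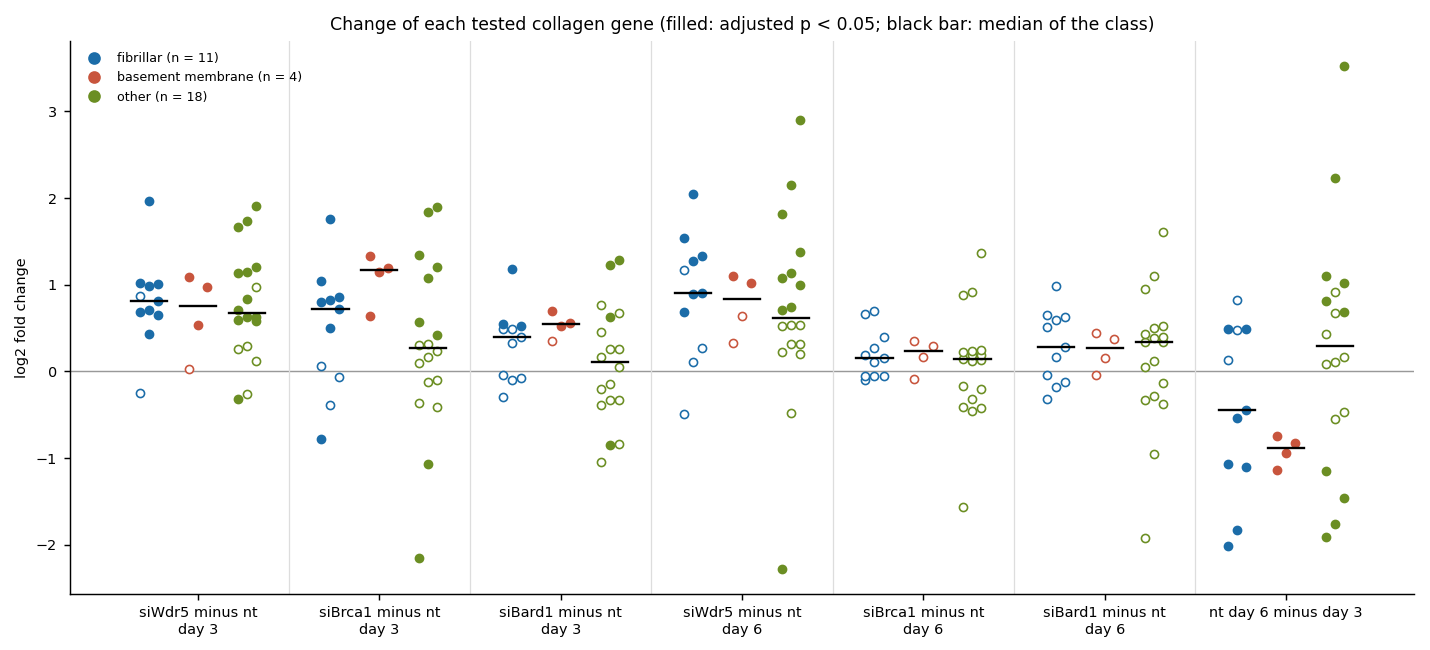
Log2 fold change (vertical axis) of the 33 tested collagen genes in each knockdown against nt and in nt from day 3 to day 6. Each point is a gene, filled where it was called (adjusted p under 0.05, limma), colored by class, and the black bars are class medians. At day 3 the medians of all 3 classes lie above 0 in each knockdown, and over time all 4 tested basement membrane genes lie below 0.

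Signs of other cell types moved in these comparisons as well. Each sum takes in only those markers of a list that were present in the deposited data. Of the 6 smooth or skeletal muscle markers, among which *Acta2* and *Tagln* mark contractile fibroblasts too, 4 were present. They summed to 800.5 to 989 CPM in nt at day 3, 2844 to 2956 CPM in siWdr5, 4231 to 5609.9 CPM in siBrca1 and 2189.7 to 2776 CPM in siBard1. All 4 of those tested were called higher in each knockdown. Fibroblast markers summed to 3401 to 3674 CPM in siWdr5, 3921 to 4183 CPM in siBrca1 and 3019 to 3449.5 CPM in siBard1, with 6, 4 and 1 of 8 called higher and 0, 1 and 1 called lower. The epithelial sum was 21.2 to 21.5 CPM in siWdr5, 24.2 to 37.1 CPM in siBrca1 and 37.5 to 45.9 CPM in siBard1, against 45.2 to 67.8 CPM in nt. Chondrocyte markers, of interest beside *Col2a1* and *Col10a1*, were scarce, with sums of 11.95 to 12.04 CPM in nt, 29.1 to 31.4 CPM in siWdr5, 12.5 to 13.6 CPM in siBrca1 and 11.4 to 13.5 CPM in siBard1. Of the 6 epithelial markers, 4 were called lower in siWdr5, 2 lower and 1 higher in siBrca1 and none in siBard1, and of the 3 tested chondrocyte markers 2 were called higher in siWdr5. Osteoblast markers summed to 57.8 to 60.6, 91.2 to 100.2, 75.5 to 76.4 and 64.9 to 69.2 CPM in the same groups, with 3, 2 and 1 of 3 tested called higher in siWdr5, siBrca1 and siBard1. Adipocyte markers summed to 8.92 to 10.98 CPM in nt, 15.7 to 15.97 CPM in siWdr5, 20.8 to 49.5 CPM in siBrca1 and 18.7 to 20.5 CPM in siBard1, with 1, 3 and 1 of 3 tested called higher in the knockdowns. Macrophage and blood markers summed to 7.05 to 7.999, 11.8 to 14.0, 16.2 to 17.2 and 7.92 to 8.68 CPM, with 1, 2 and 0 of 3 tested called higher. Of the 2 tested keratinocyte markers 1 was called higher in siWdr5, and of the 2 tested Schwann cell markers 1 each in siWdr5 and siBrca1, while neither of the 2 tested endothelial markers was called in any knockdown. The part of such cells in the collagen changes was not tested. Endothelial, macrophage and blood, adipocyte, keratinocyte and Schwann cell markers each summed to at most 59.9 CPM in the day 3 libraries.

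Type I collagen, the main fibrillar type, is a heterotrimer of the *Col1a1* and *Col1a2* chains. At day 3 *Col1a1* stood at 3312 and 4043 CPM in nt, 7242 and 7228 in siWdr5, 6523 and 5575 in siBrca1 and 5581 and 4701 in siBard1, and both libraries of each knockdown lay above both of nt. At day 6 it stood at 1048 and 1016 CPM in nt, 3507 and 5180.5 in siWdr5, 1445 and 1833 in siBrca1 and 2344 and 1793 in siBard1, again without overlap with nt. *Col1a1* was called in siWdr5 at day 3 (0.98, SE 0.18, adjusted p = 0.00109) and day 6 (2.05, SE 0.24, adjusted p = 0.00210) and in siBrca1 at day 3 (0.72, SE 0.18, adjusted p = 0.00480), where quantile normalization turned the sign (−0.0881, not called). In siBard1 at day 3 the change was 0.49 (adjusted p = 0.0852). The siBrca1 calls of *Col1a1* and *Col1a2* were lost without nt replicate 1. Its partner *Col1a2* stood at 1272 and 1465 CPM in nt, 2113 and 2269.9 in siWdr5, 1989 and 1866 in siBrca1 and 1786 and 1632 in siBard1 at day 3. Its changes were 0.68 (adjusted p = 0.00157) in siWdr5, 0.50 (adjusted p = 0.00695) in siBrca1 and 0.32 (adjusted p = 0.112) in siBard1. At day 6 *Col1a2* came to 633 and 640.4 CPM in nt, 1285 and 1839 in siWdr5, 744 and 793 in siBrca1 and 899.7 and 1029 in siBard1. It was called higher in siWdr5 at that day, though not without siWdr5 replicate 2. The reads on *Col1a1* per read on *Col1a2* were 2.603 and 2.76 in nt at day 3 and 1.66 and 1.59 at day 6, and 3.43 and 3.19 and then 2.73 and 2.82 in siWdr5. In siBrca1 the ratio was 3.28 and 2.99 at day 3 and 1.94 and 2.31 at day 6, and in siBard1 3.13 and 2.88 and then 2.61 and 1.74. It was higher in both libraries of each knockdown than in both nt libraries at each day.

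*Col3a1*, the chain of homotrimeric type III collagen, differed between the knockdowns. It was measured at day 3 at 779.6 and 769 CPM in nt, 1289.6 and 1436 in siWdr5, 727 and 482 in siBrca1 and 786 and 666 in siBard1. Both siWdr5 libraries lay above nt and both siBrca1 libraries below it, and those of siBard1 stood on either side. *Col3a1* rose in siWdr5 (0.81, SE 0.16, adjusted p = 0.00198) and was not called in siBrca1 (−0.39, SE 0.16, adjusted p = 0.0649) or siBard1 (−0.10, SE 0.16, adjusted p = 0.728). Tested against each other, siBrca1 was lower than siWdr5 (−1.202, SE 0.16, adjusted p = 4.19e-04), and so was siBard1 (−0.91, SE 0.16, adjusted p = 0.00460), although the latter call was lost without siBard1 replicate 2 or either siWdr5 library. At day 6 the levels were 1022 and 1132 CPM in nt, 1442 and 2083 in siWdr5, 1167 and 1228 in siBrca1 and 1433 and 1938 in siBard1, each above both nt libraries of day 3. *Col3a1* was called higher in siWdr5 at that day, though not without siWdr5 replicate 2 or either nt library. Its neighbour on chromosome 1 is *Col5a2*, which lies tail to tail with it and shares the type V heterotrimer with *Col5a1*. *Col5a2* stood at 392 and 453 CPM in nt, 803 and 912 in siWdr5, 721 and 746 in siBrca1 and 633 and 598 in siBard1 at day 3. It rose in all 3 knockdowns, with log2 fold changes of 1.02 (adjusted p = 3.31e-05), 0.80 (adjusted p = 1.10e-04) and 0.55 (adjusted p = 0.00825) in siWdr5, siBrca1 and siBard1. In siBrca1 these adjacent genes thus took values of opposite sign, of which that of *Col5a2* was called. *Col3a1* was called lower in siBrca1 without siBrca1 replicate 1, under quantile normalization and with the replicate block. The *Col5a2* call in siBard1 was lost without nt replicate 1.

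The type V chains, which nucleate fibrils and limit their diameter, had similar changes. *Col5a1* stood at 568 and 709 CPM in nt, 1255 and 1301 in siWdr5, 1118 and 1178 in siBrca1 and 991 and 837 in siBard1 at day 3, with no overlap between nt and any knockdown. Its log2 fold changes of 1.01 (adjusted p = 1.05e-04), 0.85 (adjusted p = 1.86e-04) and 0.52 (adjusted p = 0.0206) in siWdr5, siBrca1 and siBard1 were close to those of *Col5a2*. The reads on *Col5a1* per read on *Col5a2* were 1.45 and 1.57 in nt, 1.56 and 1.43 in siWdr5, 1.55 and 1.58 in siBrca1 and 1.57 and 1.40 in siBard1. At day 6 *Col5a1* came to 285 and 323 CPM in nt, 685 and 857 in siWdr5, 378 and 419.6 in siBrca1 and 529.8 and 355 in siBard1. *Col5a2* came to 287 and 295 CPM in nt, 464 and 631 in siWdr5, 292 and 376 in siBrca1 and 380.4 and 331 in siBard1. Only siWdr5 was called at that day, for both genes (log2 fold changes 1.34 and 0.90), and neither was called without siWdr5 replicate 2, nor *Col5a2* without either nt library. In siBard1 at day 3, *Col5a1* was not called without nt replicate 1 or siBard1 replicate 1. The third type V chain, *Col5a3*, differed, with −0.25 (adjusted p = 0.200) in siWdr5 and a fall in siBrca1 (−0.79 at adjusted p = 6.79e-04).

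Among the scarcer fibrillar genes, *Col2a1* had the largest log2 fold change of the fibrillar members in each knockdown at day 3. It stood at 11.2 and 13.8 CPM in nt, 47.0 and 49.8 in siWdr5, 38.8 and 45.5 in siBrca1 and 31.5 and 25.1 in siBard1, so that all knockdown libraries lay above nt, and it was called in all 3 (in siBard1 1.18, SE 0.15, adjusted p = 3.91e-04). At day 6 its levels of 2.30 and 4.12 CPM in nt, 6.27 and 7.66 in siWdr5, 6.90 and 3.58 in siBrca1 and 9.68 and 2.40 in siBard1 were lower, and siBrca1 and siBard1 overlapped nt. The type XI chains *Col11a1* (log2 fold changes 0.43 at adjusted p = 0.0455 in siWdr5 and 0.82 at adjusted p = 6.95e-04 in siBrca1) and *Col11a2* (0.87 at adjusted p = 0.0948 and 1.04 at adjusted p = 0.0400) were at most 45.9 and 4.92 CPM. *Col24a1* and *Col27a1*, which belong to a separate branch of the fibrillar family, rose in siWdr5 (0.70 at adjusted p = 0.00233 and 0.65 at adjusted p = 0.00204). In siBrca1 they were not called (0.06 at adjusted p = 0.766 and −0.06 at adjusted p = 0.721), and both were lower in siBrca1 than in siWdr5 (−0.65 at adjusted p = 0.00900 and −0.71 at adjusted p = 0.00295), a call lost without siWdr5 replicate 1 for both and without siWdr5 replicate 2 for *Col24a1*. *Col11a1* was not called in siWdr5 whichever library was left out, nor *Col11a2* in siBrca1 without nt replicate 1, nt replicate 2 or siBrca1 replicate 2.

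The basement membrane genes were examined by the pairs in which they lie. *Col4a1* and *Col4a2*, whose chains form the most widespread type IV heterotrimer, share their promoter region. At day 3 *Col4a1* stood at 816 and 967 CPM in nt, 1816 and 1969 in siWdr5, 1762 and 2204 in siBrca1 and 1412 and 1219.8 in siBard1. *Col4a2* stood at 691 and 821 CPM in nt, 1444 and 1511 in siWdr5, 1540.0 and 1931 in siBrca1 and 1171 and 996 in siBard1. No knockdown library overlapped nt. *Col4a1* rose by 1.09 (SE 0.15, adjusted p = 1.19e-04) on the log2 scale in siWdr5, 1.15 (SE 0.15, adjusted p = 4.48e-05) in siBrca1 and 0.56 (SE 0.15, adjusted p = 0.0223) in siBard1. For *Col4a2* the log2 fold changes were 0.97, 1.195 and 0.52, all called. The siBard1 calls of both genes were lost without nt replicate 1, nt replicate 2 or siBard1 replicate 1, and that of *Col4a5* without nt replicate 1 or siBard1 replicate 1. *Col4a1* at day 6 stood at 489 and 574 CPM in nt and 1051 and 1099 in siWdr5. It came to 682 and 618 CPM in siBrca1 and 757 and 626 in siBard1. *Col4a2* then stood at 362 and 425 CPM in nt and 819 and 856 in siWdr5. It came to 538 and 465 CPM in siBrca1 and 598 and 471 in siBard1. Both genes were called higher in siWdr5 at day 6, though not without siWdr5 replicate 2. The reads on *Col4a1* per read on *Col4a2* stayed between 1.14 and 1.35 over all 16 libraries. Their annotated exons overlap on opposite strands for 0.29% of the exon bases of *Col4a1*. The pair *Col4a5* and *Col4a6* on the X chromosome was less even. *Col4a5* ranged from 72.9 to 377 CPM and rose in all 3 knockdowns (0.54 at adjusted p = 0.00707, 1.33 at adjusted p = 8.12e-06 and 0.69 at adjusted p = 0.00506). *Col4a6*, at 4.92 to 21.7 CPM, rose in siBrca1 (0.63 at adjusted p = 0.00501) and was not called in siWdr5 (0.03 at adjusted p = 0.915). *Col4a5* was not called in siWdr5 without nt replicate 1 or siWdr5 replicate 2, nor *Col4a6* in siBrca1 without nt replicate 1. Both were higher in siBrca1 than in siWdr5 (0.79 at adjusted p = 0.00169 and 0.61 at adjusted p = 0.0204), although *Col4a6* lost this call without either siWdr5 library or siBrca1 replicate 2 and *Col4a5* without siWdr5 replicate 1. Of the third pair, *Col4a4* had 3 to 42 reads and *Col4a3* 0 to 7 reads in any library, and neither was tested. If *Col15a1* and *Col18a1* are counted as basement membrane genes, 3 of 6 rose and 1 fell in siWdr5, 4 rose in siBrca1, and 3 rose and 1 fell in siBard1.

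**Figure D3:**
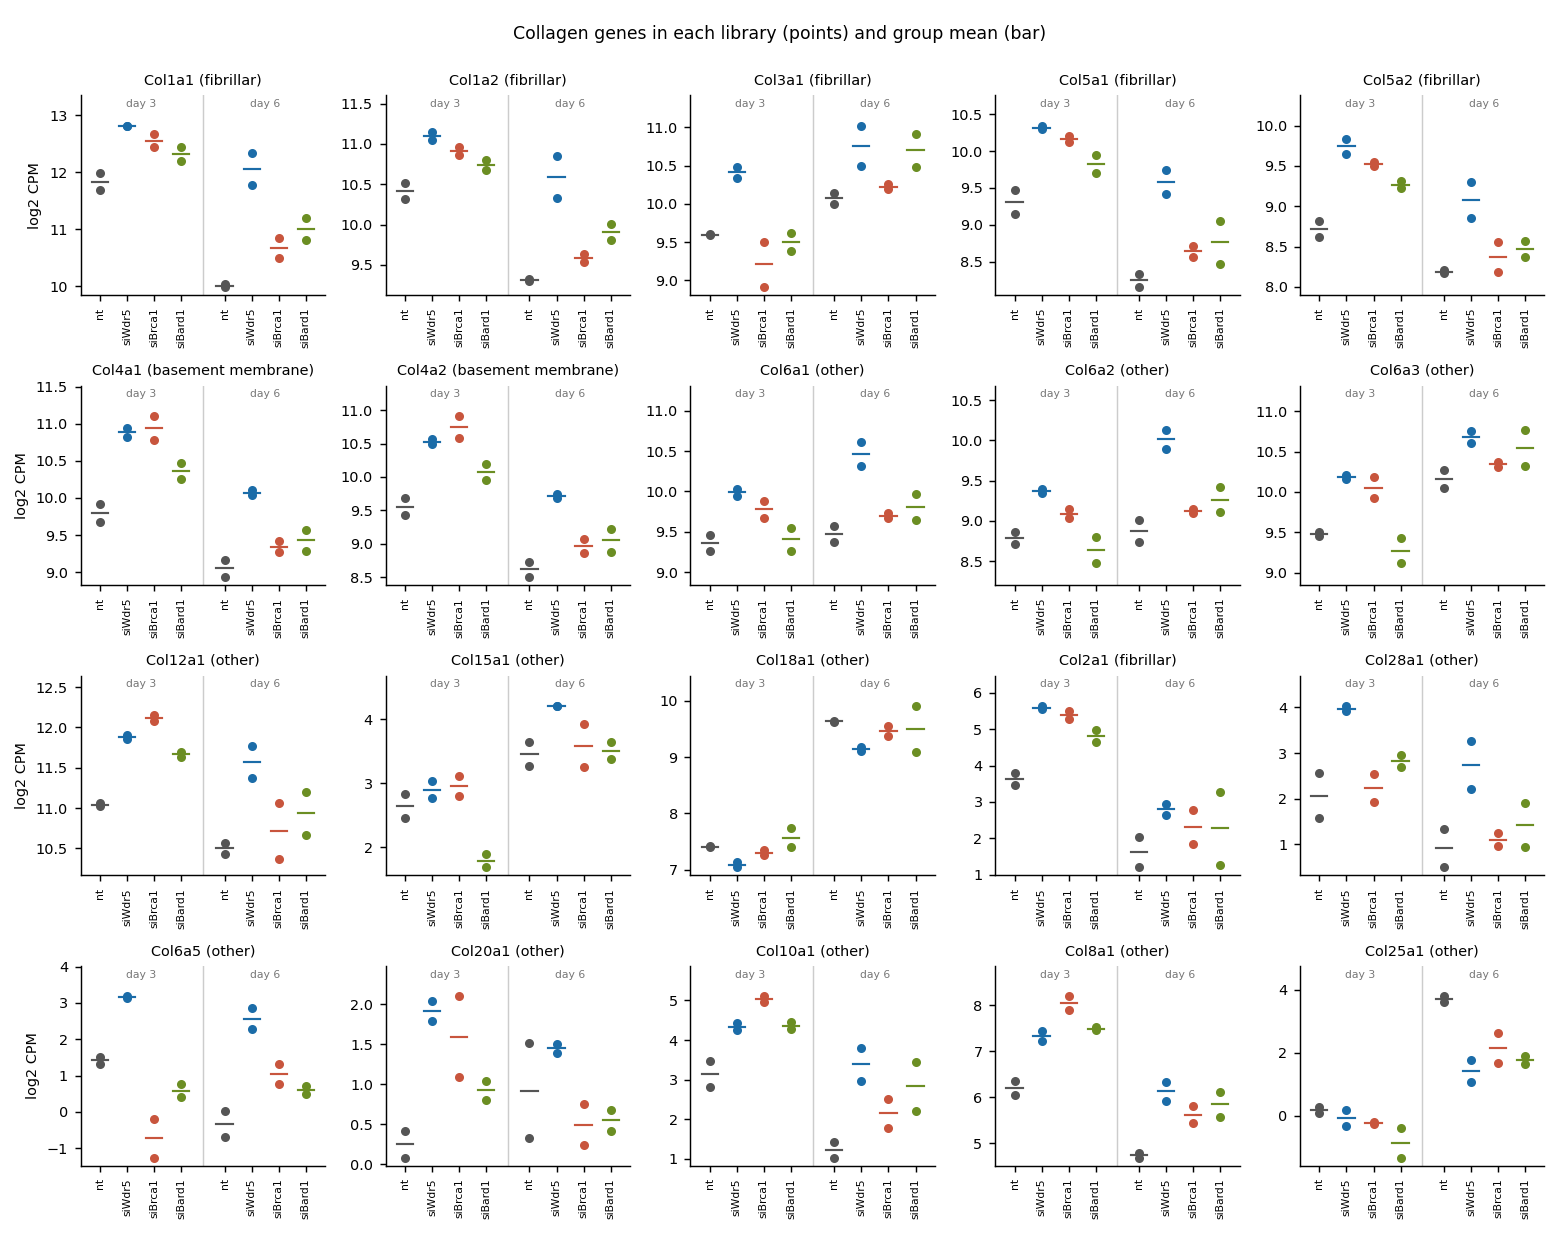
Log2 CPM of 20 collagen genes in each library (points, 2 per group) with the group mean (bar), nt in gray, siWdr5 in blue, siBrca1 in red and siBard1 in green, day 3 left and day 6 right of the line. Col4a1 and Col4a2 share 1 pattern, Col3a1 is higher in siWdr5 (1289.6 and 1436 CPM) and lower in siBrca1 (727 and 482 CPM) than in nt at day 3, and Col25a1 is near 1 CPM in nt at day 3 (1.06 and 1.22 CPM) and at 12.3 and 13.9 CPM at day 6.

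Type VI collagen, which forms beaded filaments around cells, is mainly a heterotrimer of the *Col6a1*, *Col6a2* and *Col6a3* chains. At day 3 *Col6a1* stood at 612 and 705 CPM in nt, 984 and 1048 in siWdr5, 817 and 941 in siBrca1 and 749 and 614 in siBard1. *Col6a2* stood at 419 and 464 CPM in nt, 651 and 673 in siWdr5, 524 and 566 in siBrca1 and 444 and 356 in siBard1, and siBard1 overlapped nt for both. *Col6a3* came to 702 and 725 CPM in nt, 1148 and 1182 in siWdr5, 971 and 1160.2 in siBrca1 and 688 and 556 in siBard1, with the 2 siBard1 libraries below those of nt. All 3 genes rose in siWdr5 (0.63, 0.58 and 0.71), and *Col6a1* and *Col6a3* rose in siBrca1 (0.42 and 0.57), where *Col6a2* was not called (0.30 at adjusted p = 0.0528). In siBard1 none was called (0.05 at adjusted p = 0.844, −0.15 at adjusted p = 0.430 and −0.21 at adjusted p = 0.305), and each was lower in siBard1 than in siWdr5, *Col6a3* most (−0.91, SE 0.13, adjusted p = 0.00102). The calls of *Col6a1* and *Col6a2* against siWdr5 were lost without either siWdr5 library, and that of *Col6a1* also without siBard1 replicate 2. Without nt replicate 1 *Col6a1* was called neither in siWdr5 nor in siBrca1, and without siBrca1 replicate 2 not in siBrca1. At day 6, *Col6a1* was measured at 661 and 759.9 CPM in nt, 1273 and 1569 in siWdr5, 815 and 848 in siBrca1 and 1001 and 804 in siBard1. *Col6a2* was measured at 428 and 515 CPM in nt, 952 and 1123 in siWdr5, 569 and 548 in siBrca1 and 686 and 553 in siBard1. The level of *Col6a3* was 1059 and 1234 CPM in nt, 1559 and 1723 in siWdr5, 1331 and 1272 in siBrca1 and 1284 and 1745 in siBard1. The siWdr5 libraries were the highest for *Col6a1* and *Col6a2*, and both genes were called (1.00 at adjusted p = 0.00645 and 1.14 at adjusted p = 0.00362), though not without siWdr5 replicate 2 and, for *Col6a1*, nt replicate 1, whereas *Col6a3* was not (0.52 at adjusted p = 0.0785).

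The scarce type VI chain *Col6a5*, which can take the place of the third chain in some tissues, had opposite calls in siWdr5 and siBrca1 at day 3. It stood at 2.51 and 2.87 CPM in nt, 9.09 and 8.76 in siWdr5, 0.874 and 0.418 in siBrca1 and 1.33 and 1.70 in siBard1, which corresponds to 4 and 10 reads in the siBrca1 libraries and 130 and 144 reads in those of siWdr5. The log2 fold change was 1.73 in siWdr5 and −2.15 in siBrca1, and the difference between the 2 was −3.89 (SE 0.34, adjusted p = 2.23e-05). At day 6 its values were 1.02 and 0.615 CPM in nt, 4.82 and 7.24 in siWdr5, 2.48 and 1.69 in siBrca1 and 1.41 and 1.64 in siBard1, with a rise in siWdr5 (2.90, SE 0.36, adjusted p = 0.00281), lost without siWdr5 replicate 2, and no call in siBrca1 (1.37 at adjusted p = 0.398). Its neighbours on chromosome 9, *Col6a6* and *Col6a4*, had at most 8 and 35 reads in any library and were not tested.

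Both tested network chains rose in each knockdown at day 3. *Col8a1* stood at 66.4 and 81.6 CPM in nt, 149.9 and 174 in siWdr5, 237 and 292 in siBrca1 and 185 and 175 in siBard1, and the levels of the groups did not overlap with nt. Its log2 fold changes were 1.13 (SE 0.13, adjusted p = 3.77e-05) in siWdr5 and 1.29 (SE 0.13, adjusted p = 1.04e-04) in siBard1, and siBrca1 was higher than siWdr5 (0.70 at adjusted p = 0.00307) and than siBard1, the latter by a difference of −0.55 (adjusted p = 0.0111) for siBard1 minus siBrca1. *Col10a1* stood at 6.996 and 11.1 CPM in nt, 19.0 and 21.7 in siWdr5, 31.0 and 34.5 in siBrca1 and 22.1 and 19.3 in siBard1, with siBrca1 higher than siWdr5 (0.69 at adjusted p = 0.0258). In siWdr5 and siBard1 the changes of *Col10a1* were 1.205 (adjusted p = 3.62e-04) and 1.23 (adjusted p = 0.00124), and these 2 groups differed by 0.02 (adjusted p = 0.949). At day 6 *Col8a1* came to 27.7 and 25.7 CPM in nt, 60.5 and 80.1 in siWdr5, 43.3 and 55.8 in siBrca1 and 68.6 and 47.8 in siBard1. *Col10a1* came to 2.70 and 2.05 CPM in nt, 7.86 and 14.0 in siWdr5, 3.43 and 5.73 in siBrca1 and 10.96 and 4.66 in siBard1. Both were called in siWdr5 (1.38 at adjusted p = 0.00362 and 2.16 at adjusted p = 0.00879) and not in siBard1 (1.10 at adjusted p = 0.0694 and 1.60 at adjusted p = 0.179), although no siBard1 library overlapped nt. The siWdr5 calls at day 6 were lost without siWdr5 replicate 2, and that of *Col10a1* also without nt replicate 2. The day 3 calls of siBrca1 against siWdr5 were lost without siWdr5 replicate 1 for both genes and without siWdr5 replicate 2 for *Col10a1*, and that of *Col8a1* in siBard1 against siBrca1 without siBard1 replicate 2. The part of the annotated *Col10a1* exons shared with *Nt5dc1* on the other strand is 0.58%.

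*Col12a1*, a FACIT chain that decorates type I fibrils, had the highest CPM per kb of the other members in nt at day 3. At that day it stood at 2089 and 2132 CPM in nt, 3714 and 3841 in siWdr5, 4327 and 4571 in siBrca1 and 3304 and 3189.7 in siBard1, with no overlap between nt and any knockdown. It rose in siWdr5 (0.84, SE 0.14, adjusted p = 6.10e-04), siBrca1 (1.08, SE 0.14, adjusted p = 5.51e-05) and siBard1 (0.62, SE 0.14, adjusted p = 0.0118). It was lower in siBard1 than in siBrca1 (−0.45 at adjusted p = 0.0355), a difference whose sign turned under quantile normalization (0.10, not called). At day 6 the libraries held 1383 and 1514 CPM in nt, 2655 and 3503 in siWdr5, 1326 and 2143 in siBrca1 and 2351 and 1628 in siBard1, with overlap between siBrca1 and nt, and siWdr5 was called (1.08 at adjusted p = 0.0220). In siBard1 at day 3 *Col12a1* was not called without either nt library, nor against siBrca1 without siBard1 replicate 2 or either siBrca1 library, and at day 6 it was called in siWdr5 only with all 4 libraries or without siWdr5 replicate 1. *Col20a1* was scarce, at 1.06 and 1.33 CPM in nt, 4.12 and 3.45 in siWdr5, 2.13 and 4.29 in siBrca1 and 1.75 and 2.06 in siBard1 at day 3, and was called in siWdr5 and in siBrca1 (1.34 at adjusted p = 0.00428), in the latter not without siBrca1 replicate 2. At day 6 it came to 1.26 and 2.85 CPM in nt, 2.62 and 2.85 in siWdr5, 1.18 and 1.69 in siBrca1 and 1.34 and 1.60 in siBard1 with no call. *Col16a1*, another FACIT chain, rose in siWdr5 (0.63 at adjusted p = 0.00243, lost without nt replicate 1), and *Col14a1* and *Col9a3* were not called in any knockdown.

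The multiplexins *Col15a1* and *Col18a1*, which lie in the basement membrane zone, differed from the type IV genes. *Col18a1* stood at 171 and 168 CPM in nt, 132 and 140.4 in siWdr5, 163 and 153 in siBrca1 and 214 and 168 in siBard1 at day 3, with both siWdr5 and both siBrca1 libraries below nt. At day 6 it stood at 792 and 798 CPM in nt, 552 and 584 in siWdr5, 756 and 664 in siBrca1 and 547 and 961 in siBard1. Its differences from nt on the log2 scale were −0.49 (adjusted p = 0.142) in siWdr5, −0.17 (adjusted p = 0.872) in siBrca1 and −0.13 (adjusted p = 0.833) in siBard1. *Col15a1* was measured at 5.48 and 7.15 CPM in nt, 8.16 and 6.84 in siWdr5, 6.995 and 8.65 in siBrca1 and 3.22 and 3.72 in siBard1 at day 3, and its 2 siBard1 libraries were the lowest. The fall in siBard1 held against siWdr5 (−1.11 at adjusted p = 0.00669) and siBrca1 (−1.17 at adjusted p = 0.00447) as well. The fall against nt was not called whichever of the 4 libraries was left out, that against siBrca1 not without siBard1 replicate 2, and that against siWdr5 not without siWdr5 replicate 1 or 2 or siBard1 replicate 1. At day 6 *Col15a1* came to 9.65 and 12.6 CPM in nt, 18.5 and 18.4 in siWdr5, 9.502 and 15.2 in siBrca1 and 10.4 and 12.5 in siBard1. It was called higher in siWdr5 (0.74 at adjusted p = 0.0445), a call lost whichever of the 4 libraries was left out.

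*Col28a1*, which resembles the type VI chains, and the transmembrane chain *Col25a1* were both scarce. *Col28a1* stood at 2.97 and 5.90 CPM in nt, 15.1 and 16.3 in siWdr5, 5.82 and 3.79 in siBrca1 and 6.52 and 7.72 in siBard1 at day 3, and both siWdr5 libraries exceeded all others. It was lower in siBrca1 than in siWdr5 (−1.74, SE 0.28, adjusted p = 0.00139) and lower in siBard1 than in siWdr5 (−1.15 at adjusted p = 0.0242), a call lost for siBard1 whichever of the 4 libraries was left out. At day 6 it stood at 2.54 and 1.41 CPM in nt, 4.62 and 9.56 in siWdr5, 1.96 and 2.36 in siBrca1 and 3.75 and 1.93 in siBard1, with a call in siWdr5 (1.81 at adjusted p = 0.0176). *Col25a1* was scarce in every day 3 library, at 1.06 and 1.22 CPM in nt, 1.13 and 0.800 in siWdr5, 0.874 and 0.840 in siBrca1 and 0.767 and 0.396 in siBard1. At day 6 nt had the highest libraries, with 12.3 and 13.9 CPM in nt, 3.45 and 2.12 in siWdr5, 6.21 and 3.17 in siBrca1 and 3.14 and 3.76 in siBard1. It was then the 1 member called lower in siWdr5 (−2.28, SE 0.34, adjusted p = 0.00362). Without siWdr5 replicate 2 neither *Col25a1* nor *Col28a1* was called at day 6, and *Col28a1* was not called without nt replicate 2 either. In siBrca1 and siBard1 the changes of *Col25a1* at day 6 were −1.56 (SE 0.34, adjusted p = 0.330) and −1.93 (SE 0.34, adjusted p = 0.0618). Of the other transmembrane chains, *Col23a1* rose in siWdr5 at both days (0.59 at adjusted p = 0.0253 and 0.71 at adjusted p = 0.0164). These calls were lost without nt replicate 2 or siWdr5 replicate 2 at either day, and also without siWdr5 replicate 1 at day 3 and nt replicate 1 at day 6.

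To ask whether the knockdowns differed from each other at day 3, they were tested directly. In siBrca1 against siWdr5, 4 of the 33 tested members were higher and 8 lower, against 10.2% and 5.47% of all genes. The higher members thus lay near the share of all genes. Higher in siBrca1 were *Col4a5*, *Col4a6*, *Col8a1* and *Col10a1*, and lower were 4 fibrillar members (*Col3a1*, *Col5a3*, *Col24a1* and *Col27a1*) and 4 others (*Col6a5*, *Col17a1*, *Col23a1* and *Col28a1*). Of these, *Col17a1* had 4 and 3 reads in siBrca1 and 27 and 19 in siWdr5. Calls of *Col3a1*, *Col6a5* and *Col28a1* held whichever library was left out, and the count was 3 without siWdr5 replicate 1, 7 without siWdr5 replicate 2, 14 without siBrca1 replicate 1 and 11 without siBrca1 replicate 2. In siBard1 against siWdr5, 16 members were lower and 1, *Col18a1*, was higher, against 4.85% and 3.78% of all genes. All 4 tested type VI chains were among those lower, as were 6 of 11 fibrillar members, and the median over all members was −0.53 against 0.00 over all genes tested. This count was 3, 4, 11 and 7 without siWdr5 replicate 1, siWdr5 replicate 2, siBard1 replicate 1 and siBard1 replicate 2, with *Col6a3*, *Col6a5* and *Col16a1* called in each. In siBard1 against siBrca1, 12 members were lower and 3 higher, against 13.1% and 8.33% of all genes, but without siBard1 replicate 2 none was called, and 7, 13 and 21 were called without siBrca1 replicate 2, siBard1 replicate 1 and siBrca1 replicate 1. Quantile normalization gave 9 lower and 4 higher in that comparison.

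At day 6 collagen genes were called in siWdr5 and in neither other knockdown, and the knockdowns were not tested against each other at that day. In siWdr5, 18 tested members were called higher and 1 lower, against 16.1% and 5.7% of all genes, with medians of 0.90 for fibrillar, 0.83 for basement membrane and 0.62 for other members against 0.08 over all genes tested. Of the 24 members higher at day 3, 17 (70.8%) were also higher at day 6, which is 94.4% of the 18 higher then, and among all genes tested 1286 were higher at both days, 50.2% of those of day 3 and 56.9% of those of day 6. The 2 days were compared with separate nt libraries. The other 7 members were not called at day 6, namely *Col2a1*, *Col4a5*, *Col6a3*, *Col7a1*, *Col11a1*, *Col16a1* and *Col20a1*. The largest rises at day 6 were those of *Col6a5*, *Col10a1* and *Col1a1*. The count depended most on siWdr5 replicate 2, the most deeply sequenced library, without which only *Col1a1* and *Col24a1* were called. Fewer members were also called without either nt library, but not without siWdr5 replicate 1. The collagen-processing genes examined below lost their calls without siWdr5 replicate 2 too, so this loss was not particular to collagen genes. In siBrca1 no member was called at day 6 with limma (0.0% of all genes higher and 0.0% lower), 5 had an unadjusted p under 0.05, and limma-voom on the recovered reads also called 0. In siBard1 no member was called with limma (0.0784% of all genes higher and 0.0% lower), 13 had an unadjusted p under 0.05, and limma-voom called 0. The lowest adjusted p in siBard1 was 0.0618, for *Col25a1*. Without siBard1 replicate 2, *Col8a1* and *Col10a1* were called higher. That library stood apart from replicate 1 in several members, such as *Col1a1* reads per *Col3a1* read, 1.64 in replicate 1 and 0.925 in replicate 2. The muscle marker sum at day 6 was 142 to 173 CPM in nt, 609.8 to 746 CPM in siWdr5, 426 to 474 CPM in siBrca1 and 253 to 610.1 CPM in siBard1. The epithelial sum was 556 to 749, 359.9 to 479, 559 to 593 and 379 to 491 CPM. In siWdr5 at day 6, fibroblast markers summed to 3272 to 3906 CPM against 2545 to 2872 CPM in nt, with 2 of 8 called higher, osteoblast markers to 94.2 to 106 against 54.0 to 59.1 CPM, with 3 of 3 tested higher, and chondrocyte markers to 19.4 to 27.4 against 7.45 to 9.82 CPM, with 2 of 3 tested higher. All 4 tested muscle markers were called higher there and 4 of the 6 epithelial markers lower, and 1 tested marker each was higher in the endothelial list and in the macrophage and blood list. In siBard1 at day 6, 1 tested muscle marker was called higher. The part of such cells in the day 6 values was not tested.

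From day 3 to day 6 the nt control changed its collagen profile. Of the 33 tested members 14 fell and 8 rose, against 27.1% of all genes lower and 19.0% higher. All 4 tested basement membrane members fell (median −0.89), 6 fibrillar members fell and 2 rose (−0.45), and 6 of the other members rose and 4 fell (0.30), with −0.07 over all genes tested. The falls were largest for *Col2a1* (−2.01, SE 0.45, adjusted p = 0.00196), *Col10a1* (−1.91, SE 0.36, adjusted p = 4.86e-04) and *Col1a1* (−1.83, SE 0.21, adjusted p = 1.13e-05), and *Col1a2* fell less (−1.10 at adjusted p = 5.68e-05). The rises were led by *Col25a1* (3.52, SE 0.38, adjusted p = 5.83e-06) and *Col18a1* (2.23, SE 0.19, adjusted p = 8.12e-07), followed by *Col16a1* (1.10), *Col23a1* (1.02) and *Col15a1* (0.82). Thus both multiplexins rose while the type IV genes fell, *Col4a1* by 0.75 (adjusted p = 9.51e-04) and *Col4a2* by 0.94 (adjusted p = 1.89e-04) on the log2 scale. *Col3a1* was not called (0.47 at adjusted p = 0.0665), and the reads on *Col1a1* per read on *Col3a1* went from 4.25 and 5.26 at day 3 to 1.03 and 0.898 at day 6. In type VI, *Col6a3* rose (0.68 at adjusted p = 0.00260) and *Col6a5* fell (−1.76 at adjusted p = 0.00106), whereas *Col6a1* and *Col6a2* had 0.11 (adjusted p = 0.587) and 0.09 (adjusted p = 0.641). In these libraries all 6 epithelial markers were called higher and all 4 tested muscle markers lower from day 3 to day 6. Of the 8 fibroblast markers 5 were called higher and 1 lower, and of the 3 tested adipocyte markers 2 were called higher. The macrophage and blood, keratinocyte and Schwann cell lists each had 1 tested marker called higher. The endothelial and osteoblast lists each had 1 called lower, and no tested chondrocyte marker was called. The part of such cells was not tested. Of the 22 calls 16 were made whichever library was left out. *Col11a1* lost its call whichever library was left out. *Col5a3* was called without replicate 1 of day 6 and in no other of these fits. *Col15a1* and *Col27a1* lost the call without replicate 1 of day 3 or replicate 2 of day 6, *Col28a1* without replicate 2 of either day, and *Col5a2* without replicate 2 of day 3 or replicate 1 of day 6.

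**Figure D4:**
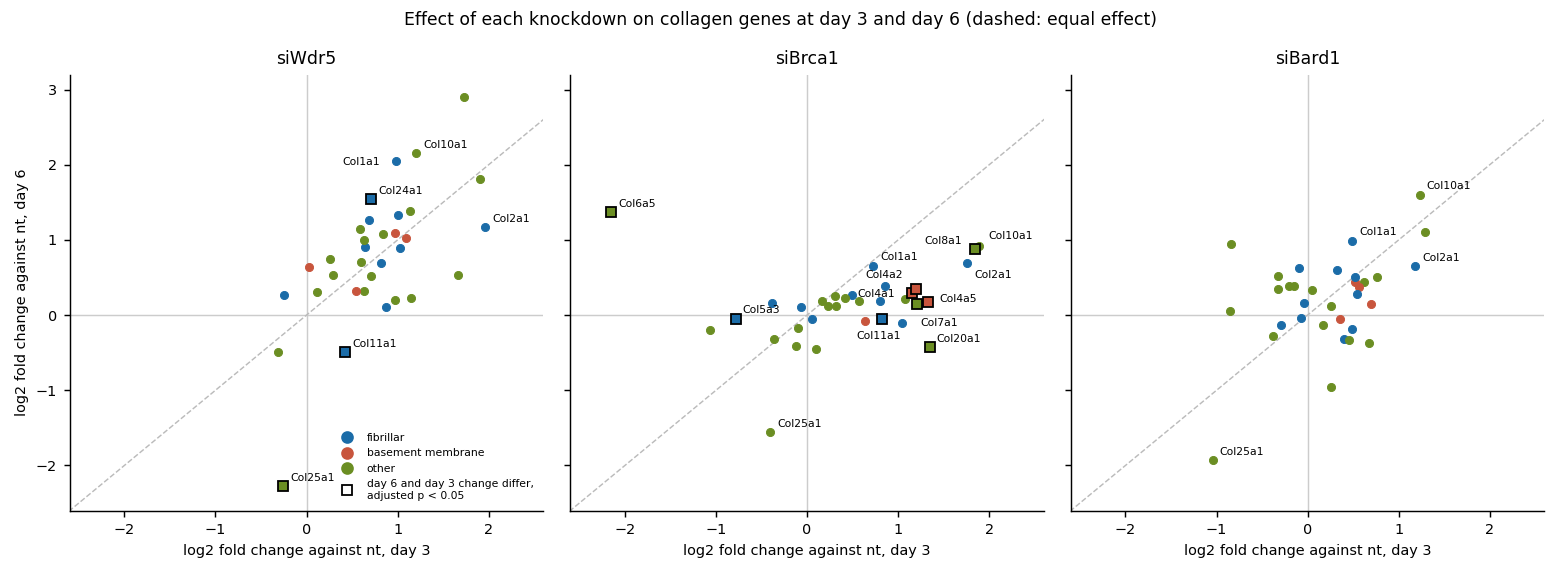
Log2 fold change of each tested collagen gene against nt at day 3 (horizontal axis) and day 6 (vertical axis) for siWdr5, siBrca1 and siBard1, colored by class, with the dashed line for equal effects. Squares mark the genes whose changes differed between the days by the interaction test (3 in siWdr5, 9 in siBrca1 and 0 in siBard1). Most siBrca1 genes to the right of 0 lie below the dashed line. Picking genes by their day 3 value favors that side by itself, so their place is no test of a change.

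Whether the effect of a knockdown differed between the days was tested as an interaction in a fit of all 16 libraries. For siBrca1 the change at day 6 differed from that at day 3 in 9 tested members, 7 with a lower and 2 with a higher value at day 6 (10.3% and 10.3% of all genes). Among them were *Col4a1*, *Col4a2* and *Col4a5*, with differences of −0.86, −0.84 and −1.16 (SE 0.22, adjusted p = 0.00368), and *Col8a1* (−0.96). *Col6a5* had the largest difference (3.52, SE 0.52, adjusted p = 0.00207), from −2.15 at day 3 to 1.37 at day 6. Only the calls of *Col4a5* and *Col6a5* were made whichever of the 8 libraries was left out, and the count ranged from 2 (without nt replicate 1 or siBrca1 replicate 2 of day 3) to 11 (without siBrca1 replicate 1 of day 3). With libraries centred on their median gene the split was 9 lower and 1 higher, and with quantile normalization 6 lower and 1 higher. For siWdr5, 1 member had a higher and 2 a lower value (3.4% and 1.03% of all genes), and the median over all genes tested was itself 0.12. They were *Col24a1* (0.83 at adjusted p = 0.0492), *Col11a1* (−0.92 at adjusted p = 0.0498) and *Col25a1* (−2.02 at adjusted p = 0.0446), and each call was lost whichever of the 8 libraries was left out. The siWdr5 interaction of *Col1a1* was 1.06 (adjusted p = 0.0550). For siBard1 limma called 0 members (0.0214% of all genes higher and 0.0285% lower), 10 had an unadjusted p under 0.05 and limma-voom called 0.

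The genes that process collagens were examined in 4 lists. Of 13 tested genes for hydroxylation, folding and chaperones, 10 higher and 1 lower were called in siWdr5 at day 3, 8 higher and 0 lower in siBrca1 and 5 higher and 0 lower in siBard1. Of all genes tested, 18.3% were higher and 16.8% lower in siWdr5, 25.4% and 21.8% in siBrca1 and 8.67% and 5.87% in siBard1. The prolyl 4-hydroxylase subunits *P4ha1*, *P4ha2* and *P4ha3*, which stabilize the triple helix, rose in all 3, *P4ha2* by 1.04 (SE 0.16, adjusted p = 3.46e-04) in siWdr5 and 1.28 (SE 0.16, adjusted p = 4.19e-05) in siBrca1. The collagen chaperone *Serpinh1* (HSP47) rose in siWdr5 (0.45 at adjusted p = 0.0103) and siBrca1 (0.61 at adjusted p = 8.51e-04), and the prolyl 3-hydroxylase *P3h3* fell in siWdr5 (−0.51 at adjusted p = 0.00713) and rose in siBrca1 (0.88 at adjusted p = 1.12e-04). Of 7 export genes, 5 higher and 0 lower were called in siWdr5, 5 higher and 0 lower in siBrca1 and 3 higher and 0 lower in siBard1. They included *Creb3l1*, a transcription factor of the secretory pathway (1.00 in siWdr5 and 0.88 in siBrca1), and the coat subunit *Sec24d* (0.95 and 0.80), whereas *Klhl12* was not called in any knockdown. For the 7 tested genes of propeptide removal the counts were 4 higher and 0 lower, 3 higher and 1 lower and 2 higher and 0 lower, with a rise of the C-proteinase *Bmp1* in all 3 (1.04, 0.70 and 0.49). The N-proteinase *Adamts2* rose in siWdr5 (1.23 at adjusted p = 1.10e-05) and had 0.25 (adjusted p = 0.101) in siBrca1. For the 7 tested collagen receptors the counts were 5 higher and 0 lower, 6 higher and 0 lower and 5 higher and 0 lower, and the discoidin domain receptors *Ddr1* and *Ddr2* rose in all 3. *Itga11*, which pairs with *Itgb1* to bind fibrillar collagen, rose in siBrca1 (1.82, SE 0.18, adjusted p = 7.78e-06) and had 0.38 (adjusted p = 0.117) in siWdr5.

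At day 6 in siWdr5 the 4 lists had 8 higher and 0 lower, 4 higher and 0 lower, 4 higher and 0 lower and 3 higher and 0 lower, in the same order, against 16.1% of all genes higher and 5.7% lower. In siBrca1 and siBard1 at day 6 limma called 0 of the 34 tested genes, as did limma-voom, with 5 and 8 at an unadjusted p under 0.05. From day 3 to day 6 in nt they had 2 higher and 1 lower, 0 higher and 3 lower, 2 higher and 2 lower and 1 higher and 3 lower, against 19.0% of all genes higher and 27.1% lower. The chaperone and isomerase *Ppib*, which rose over time (0.64 at adjusted p = 0.00116), was not called in any knockdown. Over the 34 tested genes, at day 3 siWdr5 gave 25 calls, siBrca1 23 and siBard1 15, and leaving out 1 library gave 19 to 22, 20 to 24 and 2 to 8. For siBard1 the count was 2, 7, 3 and 8 without nt replicate 1, nt replicate 2, siBard1 replicate 1 and siBard1 replicate 2. The *Serpinh1* call in siWdr5 was lost in each of its 4 fits, and that of *P3h3* in 3. In siBard1 at day 3 the calls of *P4ha1*, *P4ha2* and *Ddr2* were lost whichever library was left out. Those of *P4ha3*, *Bmp1* and *Ddr1* were lost in some of these fits, among them the fit without nt replicate 1. In siWdr5 at day 6 the count of 19 was 10 without nt replicate 1, 4 without nt replicate 2 and 0 without siWdr5 replicate 2. These lists were chosen with earlier results of the data known and were not tested as sets.

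The 10 members that did not pass the filter had few reads. Their totals over the 16 libraries ranged from 38 (*Col9a1*) to 249 (*Col4a4*). *Col13a1*, a transmembrane chain, had 15 reads in replicate 2 of nt at day 6 and 0 or 1 reads in each day 3 library. *Col19a1*, a FACIT chain of basement membrane zones, had 7 to 23 reads in each day 3 library and 0 to 8 in each day 6 library. *Col22a1*, *Col6a4*, *Col6a6*, *Col8a2*, *Col9a1* and *Col9a2* had at most 35 reads in any library. At such depth a difference between groups was not tested, and a level of up to 3 reads cannot be told from 0. The exons of *Col9a3*, which was tested, overlap those of *Tcfl5* on the other strand for 6.07% of their bases. Whether reads were counted by strand is not given in the sources used here, so the reads of overlapping genes may not be separated.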

How the data were processed

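RNA was extracted from reprogramming MEFs, and libraries were made with the Kapa RNA HyperPrep kit with RiboErase and sequenced paired-end. Per the labels and the methods of the study, reads were mapped to mm10 with STAR 2.5.2b, and the authors deposited log2 CPM values made with edgeR 3.20.9 (log2 counts scaled to library size, with a prior count). The read counter, annotation, low-count filter and strand setting are not given in the sources used here. Whole reads were recovered from the deposited log2 CPM for 100.0% of the values under 20000 reads (within 0.01 of a whole number).

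Genes whose log2 CPM averaged 0 or more across all 16 libraries entered limma 3.58.1 (R 4.3.3) with a mean-variance trend, with 1 mean per group over the 8 libraries of a day, or all 16 for changes over time and interactions. P-values are two-sided and Benjamini-Hochberg adjusted over all genes tested. The groups of a fit shared 1 estimate of the spread of each gene, so an SE does not reflect the replicates of 1 group alone. Replicates differed unequally. The chi-square per gene between the reads of the 2 libraries was 5.69 in nt, 6.71 in siWdr5, 20.6 in siBrca1 and 14.2 in siBard1 at day 3. At day 6 it was 9.92, 14.0, 29.9 and 13.7. Fold changes are on the scale of the deposited log2 CPM, whose prior count lowers the changes of scarce genes. The scripts were tested on simulated data. Levels per kb used the GENCODE M21 transcript with the longest coding sequence (mm10). With 1 library left out, a group of 1 library was taken to vary like the others. Alternatives were no filter, a stricter filter (mean log2 CPM of 2), only the compared libraries, the replicate block, log2(CPM + 1), centring, quantile normalization, no trend, a fold threshold (log2 of 1) and limma-voom on recovered reads.

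The members and lists were chosen with earlier results of these data known. Values per library are given for 13 members named by class and for the 4 called members with the largest absolute log2 fold change in each knockdown at day 3 and over time in nt, and further members are named as examples or exceptions. The 2 libraries of a group came from independent experiments.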

Additional observations from a re-analysis of the deposited data

Results flagged for a closer look

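The effect of a knockdown on collagen genes differed between day 3 and day 6 by the interaction test in 3 of 33 tested members for siWdr5 and 9 of 33 for siBrca1 (limma, adjusted p under 0.05 over all genes tested). Of all genes tested, 3.4% had a higher and 1.03% a lower value at day 6 in siWdr5, and 10.3% and 10.3% in siBrca1. In siWdr5 the day 6 minus day 3 difference of the log2 fold change was −0.92 for *Col11a1*, 0.83 for *Col24a1* and −2.02 for *Col25a1*. In siBrca1 it was −0.88 for *Col11a1*, −1.77 for *Col20a1*, −0.86 for *Col4a1*, −0.84 for *Col4a2*, −1.16 for *Col4a5*, −1.06 for *Col7a1* and −0.96 for *Col8a1*. It was 0.74 for *Col5a3* and 3.52 for *Col6a5*, both of which were lower than nt at day 3. The interaction calls of the 3 siWdr5 members were lost whichever of the 8 libraries was left out. In siBrca1 only those of *Col4a5* and *Col6a5* were kept in every such fit.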

How the results depend on the processing

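The counts of called members are given in the order of the comparisons. The shares of all genes called under each alternative, or with a library left out, are not given here. These counts can therefore not be set against them. With a fold threshold (absolute log2 fold change of at least 1) they were 10 in siWdr5, 12 in siBrca1 and 3 in siBard1 at day 3, 4 in siBrca1 against siWdr5, 3 in siBard1 against siWdr5, 3 in siBard1 against siBrca1, 13 over time in nt, 1 in the siWdr5 interaction and 4 in the siBrca1 interaction. Without the filter they were 5 in siBard1 at day 3, 10 in siBard1 against siWdr5, 8 in siBard1 against siBrca1 and 0 in the siWdr5 interaction, and without the trend 5, 8, 1 and 0. With only the compared libraries they were 7 in siBard1 against siBrca1, 1 in siBard1 at day 6, 6 in the siWdr5 interaction and 2 in the siBard1 interaction. Centring left 1 in the siWdr5 interaction. Quantile normalization reversed *Col1a1* in siBrca1 at day 3 (−0.0881) and *Col12a1* in siBard1 against siBrca1 (0.10), and the cause was not tested.

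Leaving out 1 library gave 20 to 22, 15 to 24 and 3 to 9 calls in siWdr5, siBrca1 and siBard1 at day 3, 3 to 14, 3 to 11 and 0 to 21 between knockdowns, 2 to 19 in siWdr5 and 0 to 2 in siBard1 at day 6, 17 to 22 over time, and 0 to 1 and 2 to 11 in the siWdr5 and siBrca1 interactions. With the replicate block, 1 member each was called in siBard1 at day 6 and in the siBard1 interaction. Whether replicate numbers pair the libraries was left unsettled, because a low correlation of deviations does not exclude a weak shared effect. The correlation was −0.0931 to 0.2602 over the 12 pairs of groups of the same day and above 0.1 in 3, all at day 6. Over all 28 pairs, across days included, it reached 0.3718 and was above 0.1 in 9.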
